A study of Mus musculus with 3 samples.

Results

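This account covers the genes for calcium channels, calcium pumps and channels of the transient receptor potential (TRP) family in cells sorted from mouse lung. Members were chosen by symbol among protein-coding genes: voltage-gated calcium channel subunits (Cacna, Cacnb and Cacng), TRPA, TRPC, TRPM and TRPV channels, inositol trisphosphate (IP3) receptors, ryanodine receptors, the pumps SERCA and PMCA, and the store-operated entry genes Orai and Stim. The rule took 68 of the 48709 genes in the table, or 68 of 22005 nuclear protein-coding genes. Of the 68, 66 encode channels, pumps, their subunits or sensors. The others are Trpc4ap, an adaptor protein named after TRPC4, and Trpc5os, a gene on the strand opposite Trpc5.

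The study sequenced 3 libraries in 1 group, titled WT, from mice with a creERT2 transgene driven by smooth muscle actin, whose product is a recombinase active under tamoxifen, and with tdTomato, a red fluorescent protein. Tamoxifen was given to every mouse at 75 mg/kg daily for 10 days from an age of 8 weeks, and 2 months passed before lungs were digested for sorting. The labels name lung smooth muscle as the cell type, do not give the sort gate, and leave unstated how many mice gave the libraries, so the spread between libraries may be partly technical. With 1 group there is no contrast of conditions, and what follows describes levels within these libraries and differences between them.

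Library totals ran between 16877297 and 18896263 counts. Levels are given as CPM, the counts of a gene for every 1000000 counts in its library. Nuclear protein-coding genes held 56.9%, 58.8% and 63.0% of the counts in WT libraries 1, 2 and 3, and CPM was not adjusted for this. A count of 0 allows up to 0.159 to 0.178 CPM, depending on the library. Markers of several cell types were present: the 10 smooth muscle markers summed to 141 to 188 CPM per library, with Cnn1 at 0 in WT library 1, and the 12 lymphoid markers to 1635 to 2180 CPM (lowest and highest library), with all 12 at a mean of at least 10 CPM. Their part in the levels of the calcium genes was not tested. In such bulk RNA, fewer cells of a type and less RNA per cell cannot be told apart.

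Calcium enters the cytosol through channels of the plasma membrane and through release from the endoplasmic reticulum, and pumps return it to the store or export it. In smooth muscle, entry through voltage-gated L-type channels and release through IP3 and ryanodine receptors trigger contraction. In lymphocytes and many other non-excitable cells, emptying of the store is sensed by STIM proteins, which open ORAI pores in the plasma membrane. TRP channels are cation channels opened by lipids, temperature, mechanical stress or other signals, and many of them admit calcium.

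IP3 receptor, SERCA, PMCA, Stim and Orai genes held most of the counts of the members, and most voltage-gated and TRP channel genes were low, apart from Trpm7. The 68 members together took 1841, 1955 and 2224 CPM in WT libraries 1, 2 and 3. These 15 genes made up 78.1% ± 0.718 of this sum (SD, n = 3), and 11 of them had a mean of at least 10 CPM, against 6 of the 53 others. The 3 ryanodine receptors, also release channels of the store, were counted with the others, and 0 of them reached that level. Trpc4ap, which is no channel, is among the 6. The contrast depends on how the subfamilies were grouped and was not tested. Of all 68, 42 had a mean of at least 1 CPM (61.8%, against 59.4% of nuclear protein-coding genes) and 17 of at least 10 CPM (25%, against 35.8%). The median member had 2.51 CPM and the median nuclear protein-coding gene 3.08 CPM. A count was found in each of the 3 libraries for 48 members (70.6%, against 67.4% of nuclear protein-coding genes). There was none at all for 4 members (5.88%, against 14.5%), namely Cacng2, Cacng5, Cacng6 and Trpc2. The value of Trpc2 is uncertain, since 98.3% of its 50-base words also occur in transcripts of other genes, chiefly the overlapping Xntrpc.

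**Figure D1:**
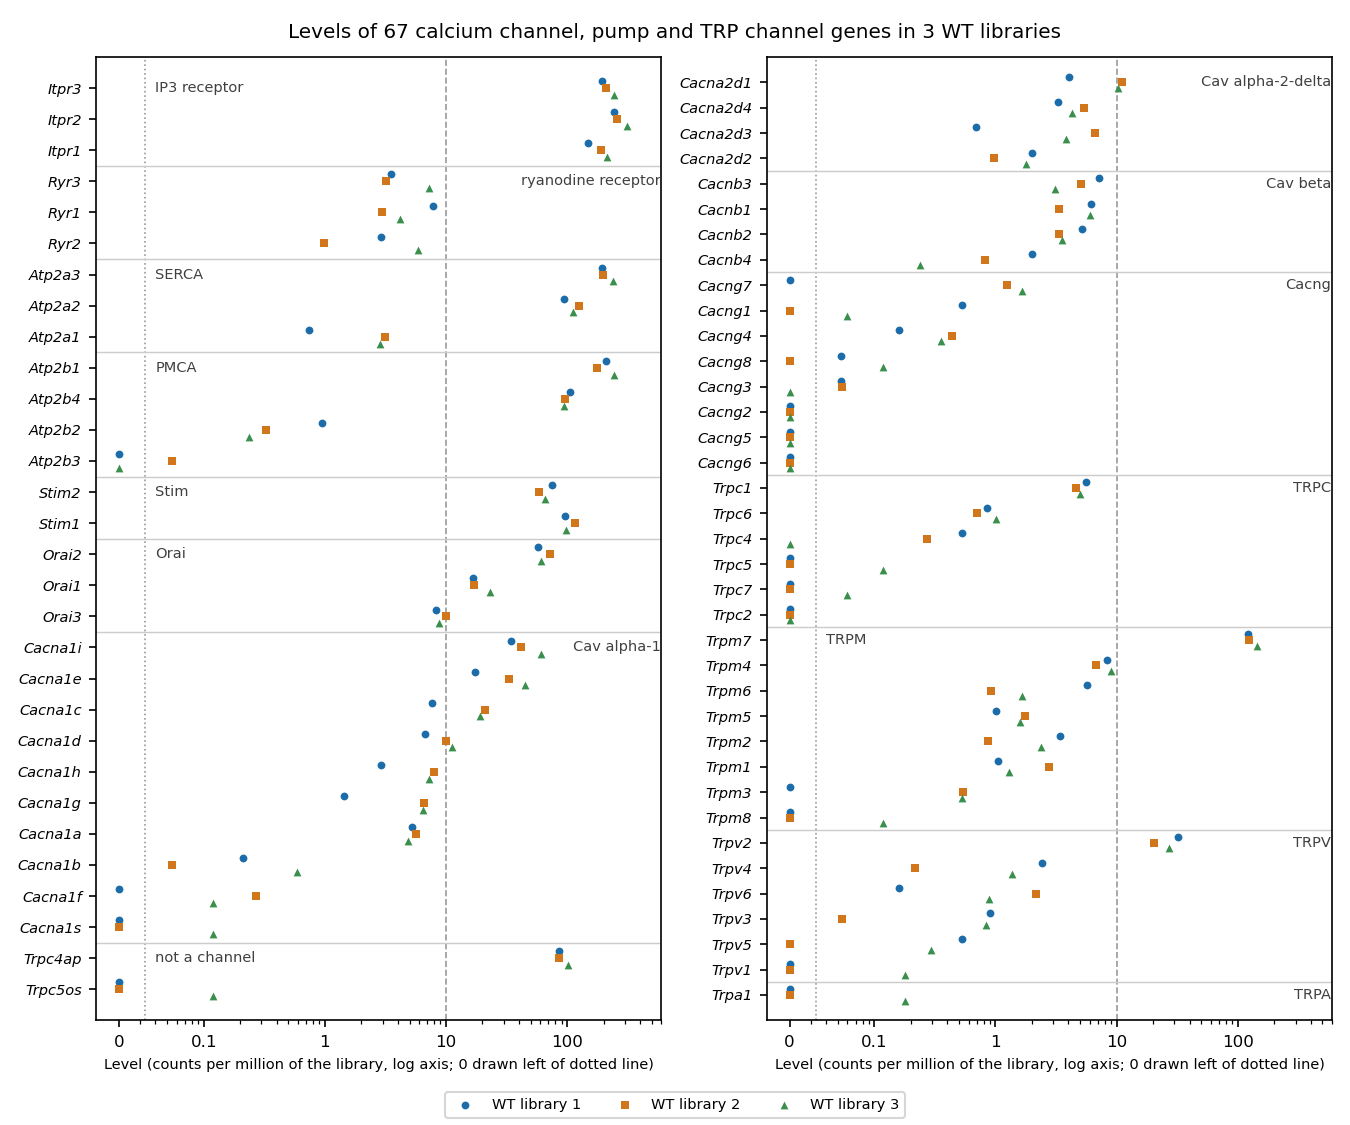
Level of 67 of the 68 members in WT libraries 1, 2 and 3 (circles, squares, triangles), in CPM on a log axis, grouped by subfamily; values of 0 stand left of the dotted line and the dashed line marks 10 CPM. The 3 IP3 receptor genes lie above 100 CPM in each library, whereas no Cacng gene reaches a mean of 1 CPM.

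Promoter windows are shown for 4 members that span these levels: Itpr3 and Atp2a3, the most abundant IP3 receptor and SERCA genes per length, Atp2a1, the low muscle SERCA gene, and Trpc6, a low channel of vascular smooth muscle. Each is 300 bases of RefSeq on GRCm38.p6, 5′ to 3′ on the strand of the gene, with 250 bases before its start and 50 after. Capitals mark matches on either strand to the GC box GGGCGG, the TATA box TATAAA and the CCAAT box CCAAT. They also mark the E-box form CAGCTG, other forms not being searched, and the CArG box that serum response factor binds. Neighbouring GC boxes may share bases.
Itpr3 (chr17:27057054-27057353, plus strand): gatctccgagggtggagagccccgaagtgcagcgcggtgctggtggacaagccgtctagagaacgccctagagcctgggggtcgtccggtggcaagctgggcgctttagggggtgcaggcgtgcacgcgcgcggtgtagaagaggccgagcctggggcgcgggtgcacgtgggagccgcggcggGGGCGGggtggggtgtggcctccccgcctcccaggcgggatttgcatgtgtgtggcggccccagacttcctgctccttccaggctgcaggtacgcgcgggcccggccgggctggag
Atp2a3 (chr11:72960919-72961218, plus strand): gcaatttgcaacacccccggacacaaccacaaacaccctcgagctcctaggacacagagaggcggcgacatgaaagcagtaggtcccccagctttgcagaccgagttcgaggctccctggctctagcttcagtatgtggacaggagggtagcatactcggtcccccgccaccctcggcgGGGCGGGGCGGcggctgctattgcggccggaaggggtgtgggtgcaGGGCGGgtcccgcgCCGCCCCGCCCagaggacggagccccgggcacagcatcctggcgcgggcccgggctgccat
Atp2a1 (chr7:126463024-126463323, minus strand): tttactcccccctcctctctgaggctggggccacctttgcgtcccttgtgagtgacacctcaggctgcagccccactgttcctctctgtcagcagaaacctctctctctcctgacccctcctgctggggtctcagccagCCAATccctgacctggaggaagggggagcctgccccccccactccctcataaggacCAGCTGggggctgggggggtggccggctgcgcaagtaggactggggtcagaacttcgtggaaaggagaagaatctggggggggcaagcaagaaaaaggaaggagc
Trpc6 (chr9:8543892-8544191, plus strand): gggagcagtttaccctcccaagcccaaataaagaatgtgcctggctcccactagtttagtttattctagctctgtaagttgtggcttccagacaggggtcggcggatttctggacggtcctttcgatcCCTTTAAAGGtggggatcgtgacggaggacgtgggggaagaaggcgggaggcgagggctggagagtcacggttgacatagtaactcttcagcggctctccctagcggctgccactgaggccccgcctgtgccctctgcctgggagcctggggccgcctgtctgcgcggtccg
The Atp2a3 window held 25 CpG dinucleotides and 5 GC boxes, and the Itpr3 window 30 CpG and 1 GC box. That of Atp2a1 held 4 CpG, no GC box, 1 E-box of the form CAGCTG and 1 CCAAT box.

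Windows were found for 55 of the 68 genes, 71 windows in all, since some genes have more than 1. The 20, 26 and 25 windows of the 3 levels below came from 15, 19 and 21 genes. In the 20 windows of members with a mean of at least 10 CPM the median GC content was 65.8% and the median ratio of observed to expected CpG 0.721. The 26 windows of members between 1 and 10 CPM had medians of 61.0% and 0.504. The 25 windows of members below 1 CPM had medians of 55.7% and 0.394. The 32851 windows of all 27025 genes, taken with no filter on gene type, had medians of 52.7% and 0.384. The GC box occurred in 55.0% of the windows of members of at least 10 CPM, in 57.7% of those of members between 1 and 10 CPM, in 32.0% of those of members below 1 CPM and in 35.7% of all windows. The E-box form CAGCTG occurred in 10.0%, 30.8% and 40.0% of the windows of these 3 levels, from the highest, and in 16.3% of all windows. A CArG box occurred in 2 member windows, those of Trpc6 and Trpv1, both genes with a mean below 1 CPM, and in 1.63% of all windows. The TATA box occurred in 8.45% of member windows and 13.6% of all, and the CCAAT box in 28.2% and 37.4%. Such matches describe letters in these windows, and no match says nothing about a factor.

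IP3 receptors, the release channels of the endoplasmic reticulum that IP3 opens, were the most abundant subfamily by counts. Itpr2 had 245, 258 and 313 CPM in WT libraries 1, 2 and 3, and ranked 314 of 22005 nuclear protein-coding genes. Itpr3 had 195, 209 and 244 CPM and ranked 445. Itpr1 had 149, 192 and 212 CPM and ranked 559. In CPM, library 1 was lowest and library 3 highest for each of these 3 genes, and the highest library exceeded the lowest by 1.25- to 1.42-fold. With library sizes rescaled by TMM, the scaling of the test below, the spread was smaller. The SD of Itpr2 was then 18.7 against 36.0 CPM, that of Itpr3 11.5 against 25.1 CPM and that of Itpr1 22.8 against 31.9 CPM.

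Compared per kilobase of exon, which allows levels of different genes to be set side by side, Itpr3 (chr17:27057304-27122223, plus strand) led. Its share of the summed counts per kilobase of the subfamily was 45.8% ± 0.803, that of Itpr2 35.1% ± 0.827 and that of Itpr1 19.1% ± 1.47 (SD, n = 3). Itpr1, the form described in smooth muscle and brain, lay below Itpr2 at a log2 ratio of -0.88 ± 0.14 and below Itpr3 at -1.26 ± 0.14. Itpr3 exceeded Itpr2 by 0.38 ± 0.027. These differences were larger than the spread over libraries, but they depend on the length used. With the longest annotated transcript in place of the union of exons they were -0.33, -0.37 and 0.045.

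Ryanodine receptors, which release stored calcium in response to calcium itself, were far lower. Ryr1, the skeletal muscle form, had 147, 54 and 70 counts in WT libraries 1, 2 and 3, or 4.96 ± 2.52 CPM. Ryr3, a form also found in smooth muscle, had 66, 59 and 123 counts. Ryr2, the cardiac form, which smooth muscle also uses, had 55, 18 and 99 counts. No order held across libraries: Ryr1 was highest in library 1 and Ryr3 in library 3, and the log2 ratio of Ryr3 to Ryr1 per kilobase was 0.13 ± 0.99. The summed level of the 3 genes was 12.9 ± 5.21 CPM, against 672 ± 90.2 CPM for the 3 IP3 receptors. Per kilobase of exon the sums were 0.586 ± 0.225 and 52.4 ± 6.79 CPM. Ryr3 shares 4.83% of its exon bases with Aven on the opposite strand, a gene at 21.5 CPM, and the strand setting of the counting was not stated in the labels.

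SERCA pumps, which refill the store, were led by Atp2a3 (chr11:72961169-72993044, plus strand), a form known from blood cells, endothelium and some epithelia. Atp2a3 had 193, 196 and 239 CPM in WT libraries 1, 2 and 3, and per kilobase of exon, at 39.7 ± 4.84 CPM, it stood highest of the 68 members and within the top 2.43% of 21839 nuclear protein-coding genes with an exon length. Atp2a2, whose isoforms serve heart, smooth muscle and most other cells, had 94.8, 124 and 112 CPM. Within libraries it lay below Atp2a3 by a log2 ratio of -1.13 ± 0.23 per kilobase, so Atp2a3 was 2.19-fold higher. With the longest transcript as length the ratio was -1.23 ± 0.23. Atp2a1, the pump of fast skeletal muscle, had 14, 58 and 48 counts. It was lowest in library 1. Of its exon bases 21.9% overlap Rabep2, a gene on the opposite strand at 44.3 CPM, so its low counts are uncertain.

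PMCA pumps export calcium across the plasma membrane. Atp2b1, the widely expressed form, had 208, 176 and 245 CPM in WT libraries 1, 2 and 3, and Atp2b4, also widely expressed, 106, 96.8 and 93.4 CPM. Atp2b1 was the higher in each library, by a log2 ratio of 0.76 ± 0.28 per kilobase and by 1.79 with the longest transcript as length. Atp2b2, known from neurons and hair cells, had 18, 6 and 4 counts, and the neuronal Atp2b3 had 1 count, in library 2.

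STIM proteins sense the calcium of the store and ORAI proteins form the pore they open. Stim1 had 96.7, 117 and 97.9 CPM in WT libraries 1, 2 and 3, and Stim2 74.6, 59.0 and 65.8 CPM. Which of the pair was higher per kilobase depended on the length: the log2 ratio of Stim1 to Stim2 was -0.37 ± 0.31 with the union of exons and 0.82 ± 0.31 with the longest transcript, in which Stim1 measures 4362 bases in place of 10371. Among the pores, Orai2 had 57.6, 72.0 and 61.3 CPM, Orai1 16.8, 16.9 and 23.2 CPM, and Orai3 8.31, 9.92 and 8.71 CPM. Per kilobase of exon Orai1, the main pore of store-operated entry in T cells, lay below Orai2 in libraries 1 and 2 and level with it in library 3, and the log2 ratio, -0.35 ± 0.34, was about the size of its SD. With the longest transcript as length it was -0.66 ± 0.34. Orai1 exceeded Orai3 by 0.97 ± 0.32. The summed Orai level per kilobase was 22.9 ± 1.95 CPM and the summed Stim level 23.0 ± 0.827 CPM.

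**Figure D2:**
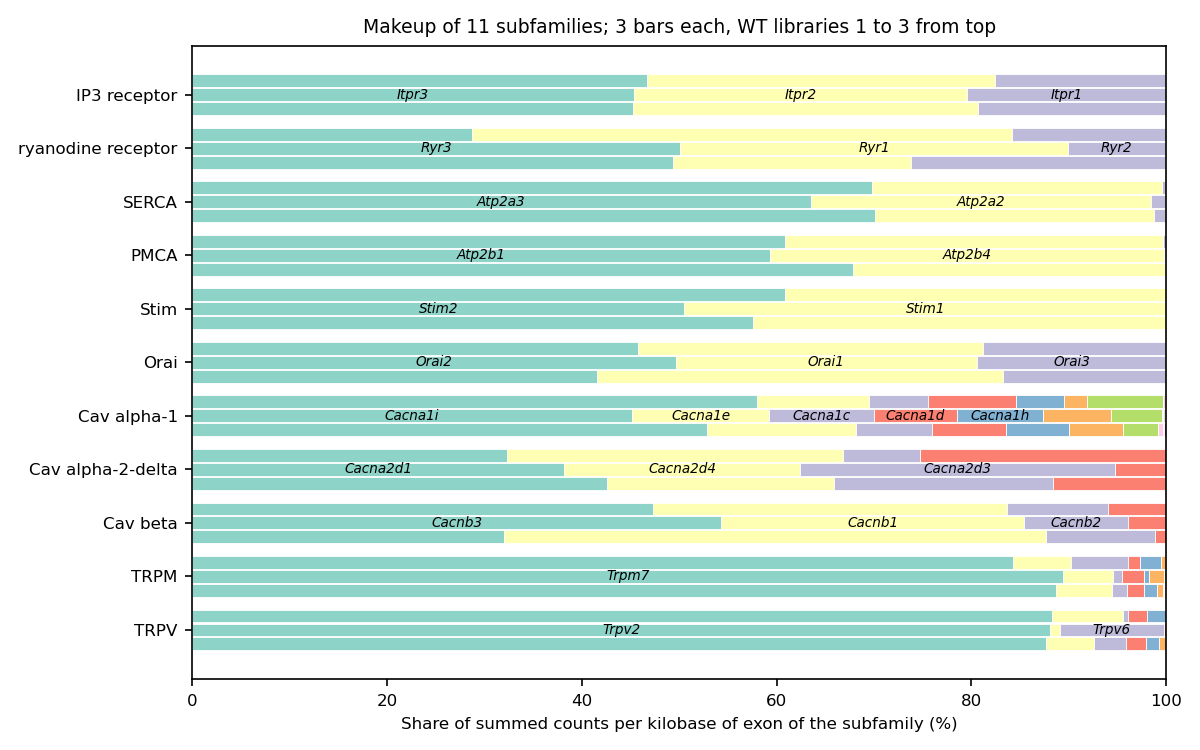
Share of each member in the summed counts per kilobase of exon of its subfamily (x axis, percent), for 11 subfamilies with WT libraries 1 to 3 as the 3 bars of each from top to bottom; colours mark members within a subfamily only. Trpm7 and Trpv2 take over 84% and 87% of their subfamilies in each library, whereas the ryanodine receptors change order between libraries.

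Pore-forming alpha-1 subunits of voltage-gated channels were led by Cacna1i (chr15:80287238-80398279, plus strand), a T-type subunit described mainly in neurons. It had 34.2, 41.4 and 60.4 CPM in WT libraries 1, 2 and 3, and took 52.0% ± 6.48 of the summed counts per kilobase of the 10 genes (SD, n = 3). With the longest transcript as length its share was 43.0% ± 6.23, still the highest of the 10. Cacna1e, the pore of R-type channels, followed with 17.4, 33.1 and 44.7 CPM. Cacna1c (chr6:118587240-119196418, minus strand), the L-type pore through which depolarisation drives contraction of smooth muscle, had 7.67, 21.1 and 19.1 CPM, and its share per kilobase was 8.17% ± 2.35. For all these genes library 1 was the lowest.

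Cacna1d, the other widely expressed L-type pore, had 6.77, 10.0 and 11.2 CPM and could not be ranked against Cacna1c, at a log2 ratio of -0.075 ± 0.45 per kilobase. Cacna1h and Cacna1g, T-type subunits found in vascular smooth muscle among other tissues, had 55, 147 and 122 counts and 27, 121 and 110 counts. The ratio of Cacna1c to Cacna1h was 0.28 ± 0.0030 on the log2 scale per kilobase, and both were lowest in library 1. At these counts the counting error of the ratio is larger than this SD. The SD is therefore no measure of precision, and an equal degree of lowering cannot be read from it. Cacna1a, the P/Q-type pore, had 100, 103 and 82 counts and was not called as varying by the chi-square test described below. The 3 lowest pores were near the limit of detection: the N-type Cacna1b had 4, 1 and 10 counts, the retinal Cacna1f 0, 5 and 2, and the skeletal muscle Cacna1s 0, 0 and 2.

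Auxiliary subunits, which carry the pore to the membrane and tune its gating, lay below 10 CPM in the mean without exception. Of the alpha-2-delta genes, Cacna2d1, the form of muscle and many other tissues, had 4.02, 11.2 and 10.2 CPM in WT libraries 1, 2 and 3, and Cacna2d4 had 3.28, 5.39 and 4.27 CPM. Their log2 ratio, 0.47 ± 0.51 per kilobase, was within its SD of 0. Cacna2d3 had 13, 122 and 64 counts and Cacna2d2 38, 18 and 30. The beta subunits Cacnb3 and Cacnb1 led their group with 135, 94 and 52 counts and 117, 61 and 102 counts. Cacnb2, the main beta subunit of heart, had 98, 61 and 60 counts and lay below Cacnb3 by a log2 ratio of -2.01 ± 0.44 per kilobase, which was -1.17 with the longest transcript as length and -0.29 with no length. Cacnb4 had 38, 15 and 4 counts.

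Cacng genes encode gamma subunits of muscle channels and, for several members, partners of glutamate receptors in brain. None of the 8 reached a mean of 1 CPM. Cacng7 had 0, 23 and 28 counts in WT libraries 1, 2 and 3. Cacng1, the gamma subunit of skeletal muscle, had 10, 0 and 1 counts, and Cacng4 had 3, 8 and 6. Cacng3 and Cacng8 had 2 and 3 counts over the libraries.

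TRPC channels open downstream of phospholipase C, and TRPC6 is known from vascular smooth muscle. They were low here. Trpc1 had 105, 85 and 84 counts in WT libraries 1, 2 and 3, and Trpc6 had 16, 13 and 17. Neither gene was called as varying by the chi-square test described below, which can miss differences at counts as low as those of Trpc6. Trpc1 exceeded Trpc6 by a log2 ratio of 1.87 ± 0.23 per kilobase and made up 68.7% ± 2.09 of the summed TRPC level per kilobase. Trpc4 had 10, 5 and 0 counts, Trpc5 2 and Trpc7 1, the last 2 genes only in library 3. The adaptor Trpc4ap, which is no channel, had 85.7, 85.5 and 101 CPM and should not be read as a TRPC level. Trpc5os had 2 counts, both in library 3.

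Among TRPM channels, Trpm7 (chr2:126791565-126876230, minus strand), a channel fused to a kinase that passes magnesium and calcium in most cells, stood alone. It had 122, 125 and 143 CPM in WT libraries 1, 2 and 3, or 87.5% ± 2.79 of the summed TRPM level per kilobase. The chi-square test described below did not call it as varying. Trpm4, a sodium-passing channel that calcium opens, had 8.36, 6.81 and 8.95 CPM and lay below Trpm7 by -3.96 ± 0.16 on the log2 scale per kilobase, or -3.30 with the longest transcript as length. Trpm6, the magnesium channel of kidney and gut epithelium, had 108, 17 and 28 counts. Trpm2, a channel of phagocytes that oxidative stress opens, had 65, 16 and 40. Both were highest in library 1. Trpm5, the channel of taste and tuft cells, had 19, 32 and 27 counts, and Trpm1 had 20, 51 and 22. Trpm3 had 0, 10 and 9 and the cold receptor Trpm8 0, 0 and 2.

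TRPV channels were led by Trpv2 (chr11:62574486-62600515, plus strand), a channel expressed in leukocytes among other cells, with 32.4, 20.4 and 26.8 CPM in WT libraries 1, 2 and 3 and 88.0% ± 0.329 of the summed TRPV level per kilobase. Trpv4, a channel of endothelium, epithelium and macrophages that swelling and stretch open, had 46, 4 and 23 counts. Trpv6, a calcium-selective epithelial channel, had 3, 40 and 15. The related Trpv5 had 10, 0 and 5, and Trpv3 had 17, 1 and 14. The pain receptor genes Trpv1 and Trpa1 had 3 counts each, all in library 3.

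**Figure D3:**
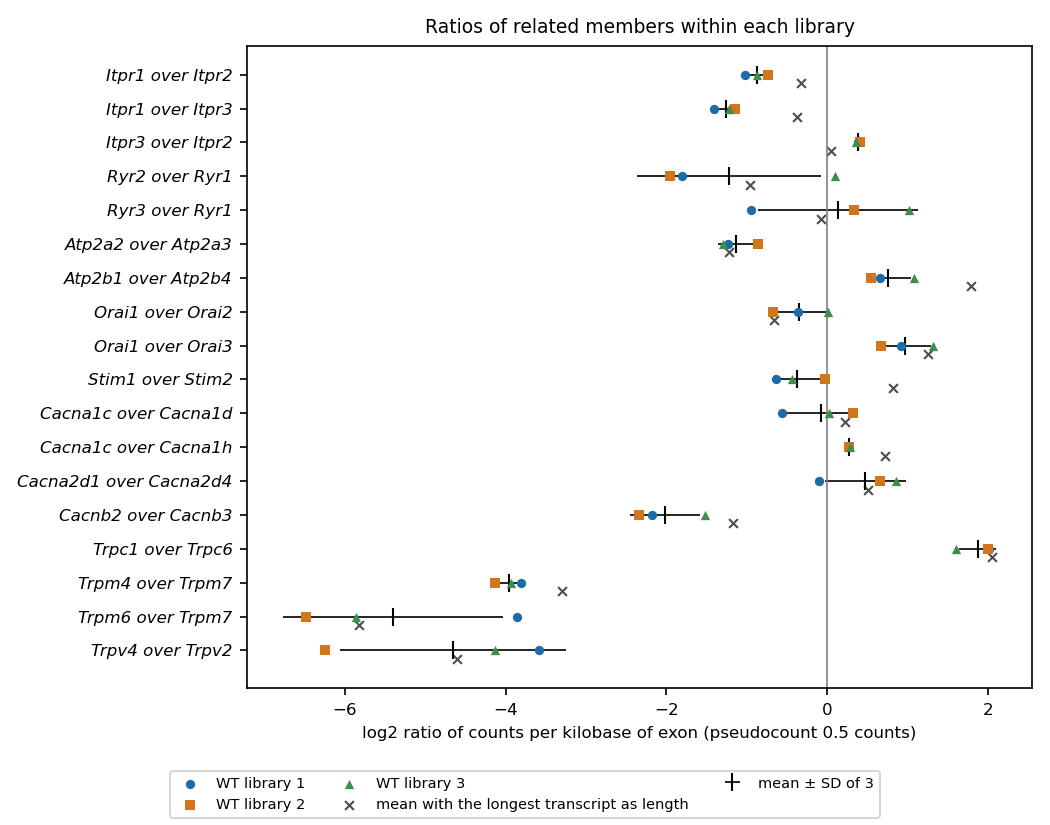
Log2 ratio of related members within WT libraries 1, 2 and 3 (circles, squares, triangles), from counts per kilobase of exon with a pseudocount of 0.5 counts; bars give the mean and SD of 3, and crosses the mean with the longest transcript as length. Of the 18 pairs drawn, 13 keep 1 sign in the 3 libraries, and the cross for Stim1 over Stim2 lies on the other side of 0 from the points.

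In all, 14 of 19 related pairs had the same sign in each of the 3 libraries. The smallest p that 3 libraries allow in an exact permutation of signs, two-sided, is 0.25, and the pairs were therefore not tested. In 6 of 13 subfamilies with more than 1 member, the leading member held over 50% of the level per kilobase in each library. These leaders were Atp2a3, Atp2b1, Stim2, Trpc1, Trpm7 and Trpv2, and of these Stim2 lost its lead to Stim1 with the longest transcript as length.

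The libraries differed from each other in many members. Each gene with at least 10 counts was tested for equal rates in the 3 libraries by chi-square, with TMM-scaled library sizes and Benjamini-Hochberg adjustment over all genes tested. The test called 43 of the 53 members tested at an adjusted p under 0.05, beside 70% of 23317 genes and 73.1% of 15597 nuclear protein-coding genes. The share of members, 81.1%, was not far above that background. At a mean of at least 10 CPM it called 15 of 17 members, all but Trpm7 and Trpc4ap, beside 79% of nuclear protein-coding genes. Without WT library 1 it called 25 of 50 members, beside 38.2% of genes. The test compares these libraries and not conditions.

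The size of the differences depended on the level. Among the 17 members with a mean of at least 10 CPM the median ratio of the highest to the lowest library was 1.28, beside 1.30 for 7883 nuclear protein-coding genes at that level. Among the 25 members between 1 and 10 CPM it was 2.63, beside 1.82 for 5188 such genes. Of the 42 members with a mean of at least 1 CPM, 18 were called with a highest library over 2 times the lowest (42.9%, beside a background of 20.5%). This background was not matched for level: 25 of the 42 members lay between 1 and 10 CPM, beside 5188 of 13071 nuclear protein-coding genes. Without WT library 1, 5 of 41 passed the same rule, beside 6.36% of such genes. Without library 2, 12 of 41 passed, beside 12.7%, and without library 3, 15 of 42, beside 14.1%. Cacna1e and Cacna1c were the members with a mean of at least 10 CPM among the 18, and the 15 others of that level stayed within 2-fold.

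Of these 18 members, 9 were lowest in library 1, namely Cacna1c, Cacna1e, Cacna1g, Cacna1h, Cacna2d1, Cacna2d3, Atp2a1, Trpm1 and Trpv6. That is 50% of them, beside 48.1% of the 2684 nuclear protein-coding genes that passed the same rule. Cacna2d3 differed most widely among the voltage-gated subunits of the 18, by 9.66-fold between library 2 and library 1, and Cacna1g differed by 4.61-fold. The other 9 comprised 7 with a minimum in library 2 (38.9% of the 18, beside 37.0% of the 2684 genes). The remaining 2, Cacnb3 and Cacnb4, had a minimum in library 3 (11.1%, beside 14.9%). Trpv4, Trpm6, Trpm2, Ryr1 and Cacna2d2 were highest in library 1 and lowest in library 2, with 11.2-fold between the libraries for Trpv4 and 6.17-fold for Trpm6. Of the 18, 7 were highest in library 1 (38.9%, beside 37.8% of the 2684 genes). The share of those genes with both traits was not counted.

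Marker lists moved between the libraries as well. The 12 lymphoid markers summed to 1635, 1989.6 and 2179.7 CPM in WT libraries 1, 2 and 3, with 7 of 12 lowest in library 1. Ighm made up 31.2%, 35.6% and 39.3% of this sum. The T cell markers Cd3e, Cd3g, Cd4, Cd8a and Lck were each lowest in library 3 instead. The 10 fibroblast markers, each lowest in library 1, summed to 918, 1887 and 1899 CPM, the 8 pericyte markers to 66.2, 123 and 93.4 CPM, and the 10 smooth muscle markers to 141, 188 and 156 CPM. These 4 sums were lowest in library 1, as were the 9 members named first above, and 8 of 10 smooth muscle and 5 of 8 pericyte markers were singly lowest there. The sums of the striated muscle markers and of the platelet and red cell markers, given below, were lowest in library 1 too. Singly, 6 of 10 and 4 of 7 of these markers were lowest there, and 2 and 1 were highest there. The 10 alveolar epithelial markers summed to 2325, 543 and 649 CPM, the 10 airway epithelial ones to 13882, 2929 and 7944 CPM, the 10 myeloid ones to 912, 292 and 386 CPM and the 10 endothelial ones to 854, 491 and 640 CPM. These 4 sums were highest in library 1 and lowest in library 2, as were Trpv4, Trpm6, Trpm2, Ryr1 and Cacna2d2. Not each marker was: 6 alveolar, 6 airway, 7 myeloid and 7 endothelial ones had that order. Scgb1a1 made up over 95% of the airway sum in library 1 and Lyz2 77.2% of the myeloid sum. The 10 striated muscle markers summed to 18.2, 18.8 and 27.9 CPM, with 8 of 10 at a mean of at least 1 CPM and none at 10. Acta1 made up 43.1%, 42.6% and 31.4% of this sum. Of the 10 neuron and Schwann cell markers, 4 reached 1 CPM in the mean, and the sum of 79.8 to 108 CPM was over 91% Mbp in each library. The 7 platelet and red cell markers summed to 419, 1876 and 637 CPM. Most of this sum was the red cell genes Hbb-bs, with 228, 1033 and 332 CPM, and Hba-a1, with 187, 840 and 297 CPM. Markers without a count in library 1 were Cnn1 of smooth muscle, Krt5 and Ccdc39 of airway epithelium, Myh1 of striated muscle, Snap25 and Sox10 of neurons and Schwann cells, and the platelet gene Ppbp. The part of any of these cells in the differences was not tested.

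**Figure D4:**
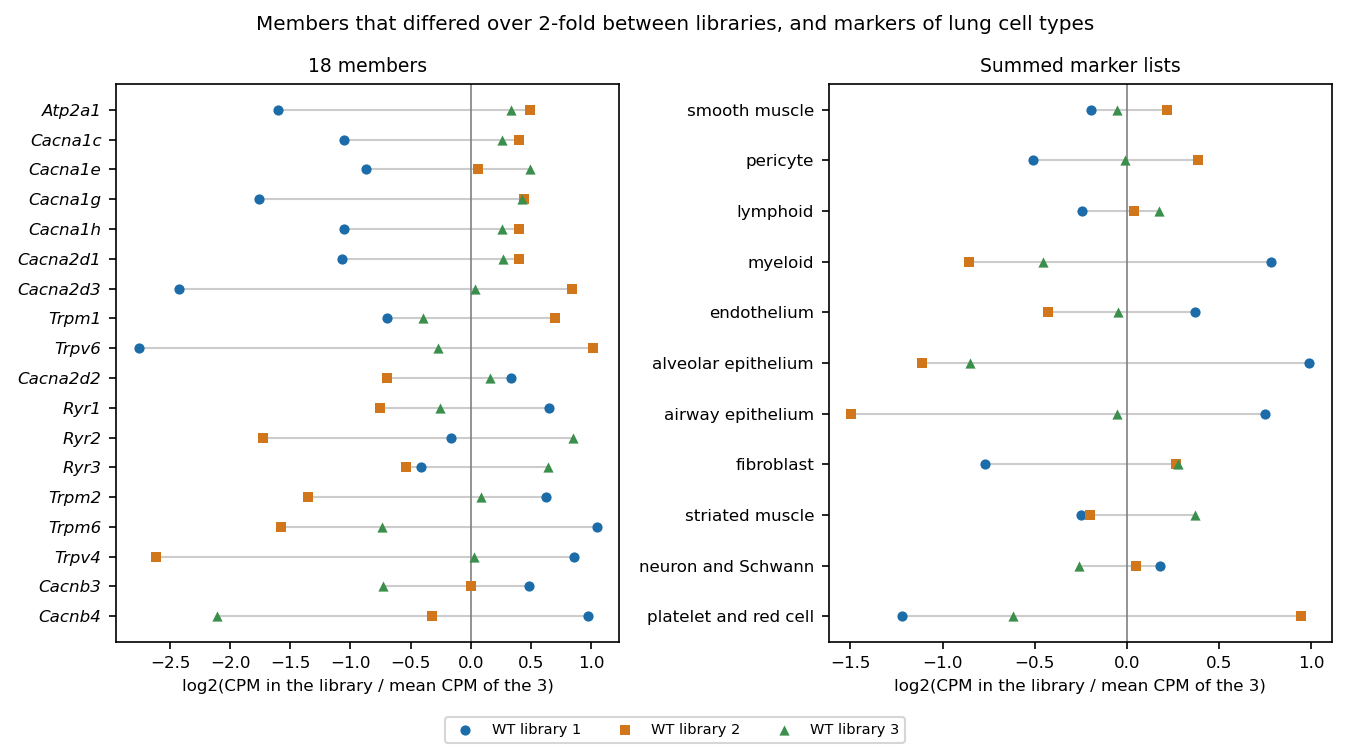
Log2 of the level in each library over the mean of the 3 libraries, for the 18 members that the chi-square test called with over 2-fold between libraries and a mean of at least 1 CPM (left), and for the summed CPM of 11 marker lists (right); circles, squares and triangles are WT libraries 1, 2 and 3. Cacna1c, Cacna1g and Cacna1h are among the members lowest in library 1. The summed fibroblast, pericyte, lymphoid, smooth muscle, striated muscle, and platelet and red cell markers lie lowest there too. Trpv4, Trpm6, Trpm2, Ryr1 and Cacna2d2 lie highest in library 1 and lowest in library 2. The summed alveolar epithelial, airway epithelial, myeloid and endothelial markers have that order as well.

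The wider calcium system was described by a list of 60 further genes, of which 58 were matched. Of these, 46 had a mean of at least 1 CPM and 32 of at least 10 CPM, with a median of 17.5 CPM. Of 7 store proteins, 4 had a mean of at least 10 CPM, between Rcn1, with 17.0, 27.9 and 24.7 CPM in WT libraries 1, 2 and 3, and the chaperone calreticulin, Calr, with 462, 644 and 576 CPM. The others were below 1 CPM, with 3, 12 and 8 counts for the calsequestrin Casq1 and 0, 1 and 4 for Casq2. Of the SERCA regulators, phospholamban, Pln, which restrains SERCA in heart and smooth muscle, had 2.75 ± 0.666 CPM, and sarcolipin, Sln, 2 counts, whereas Tmx1, a thioredoxin of the endoplasmic reticulum, had 36.1 ± 1.88 CPM.

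All 12 genes for calmodulin and its targets had a mean of at least 10 CPM. Among them, Nfatc3 and Nfatc1, factors that calcineurin activates, had 223 ± 19.4 and 176 ± 9.03 CPM. Saraf, which shuts off store-operated entry, had 138, 196 and 135 CPM and had the most counts of the junction and entry partners. The junctophilins Jph1 and Jph2, which tie the store to the surface membrane in muscle, had 1, 20 and 16 counts and 4, 22 and 25 counts, lowest in library 1. The Golgi pump Atp2c1 had 58.1 ± 3.18 CPM. All 7 sodium-calcium exchangers lay below 10 CPM in the mean, with 9.81 ± 0.513 CPM for Slc8b1 and 8.48 ± 1.68 CPM for Slc8a1. Among mitochondrial genes Letm1 had 52.9 ± 4.84 CPM, and among lysosomal channels Tpcn1 had 42.5 ± 2.82 CPM and Pkd2 38.5 ± 6.36 CPM.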

How the data were processed

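The authors deposited whole-number read counts per mouse Ensembl gene, not normalized, with gene symbols and coordinates. Tools named per the submitters' processing notes are STAR 2.6.1d, featureCounts 1.6.3 (Subread), Trimmomatic 0.38, DESeq2 1.18.1 and FastQC; the builds named there, hg38 and GRCh38, are human. Not given in the sources used here are the order of steps, the strand setting and the treatment of reads that match several genes. Total RNA was extracted with a miRNeasy kit and libraries were made with a stranded SMARTer kit, per the labels' protocols. Count columns are headed as controls 1 to 3 and were matched to WT libraries by number, WT being the only group.

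Exon lengths and overlaps came from GENCODE M21 (GRCm38), in which 59 of the 68 members have the coordinates of the table. Overlap with exons of another gene was found for 25 members. Levels per kilobase divide CPM by the union of exons. CPM for members of at least 10 CPM had 95% Wilson intervals of at most 16.3% to either side, for counting error only. The chi-square test used edgeR 4.0.16 TMM factors in R 4.3.3 and scipy 1.17.1, with DESeq2 1.42.0 size factors as an alternative. It was run on simulated counts that held only counting error and planted changes. That run cannot show how the test behaves where most genes differ between libraries. Full values are given for members of at least 10 CPM, the 2 highest of each subfamily and the called members over 2-fold; all members may be named, except that 1 member and 1 companion gene are not reported singly here. Marker and companion lists matched by symbol, or by Ensembl ID for 3 genes. Members and lists were chosen with earlier results of these data known.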

Additional observations from a re-analysis of the deposited data

How the results depend on the processing

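The count of members with a mean of at least 1 CPM was 42 and stayed between 41 and 44 under other denominators, without each library and without Trpc4ap and Trpc5os, an alternative chosen after seeing the data. That of at least 10 CPM was 17 and stayed between 16 and 22. With counts of nuclear protein-coding genes as the denominator the summed level of the members was 3364 CPM, against 2006 CPM. With TMM-scaled library sizes the sum was 2001 ± 71.3 CPM, against 2006 ± 197 CPM by library totals (SD, n = 3). The chi-square test called 43 or 45 of 53 members with other scalings and 42 of 64 with no minimum. It called 25 of 50 members without library 1, 32 of 51 without library 2 and 36 of 52 without library 3. The shares of all genes called in these 3 settings were 38.2%, 53.6% and 56.8%, also lowest without library 1. Ratios rest on exon length. With the longest transcript those of Ryr3 to Ryr1, Stim1 to Stim2 and Cacna1c to Cacna1d had the other sign, at -0.082, 0.82 and 0.23. With no length they were -0.071, 0.64 and 0.67, and Itpr3 to Itpr2 was -0.33. Leaving out each library in turn gave ratios of -0.27 to 0.17 for Cacna1c to Cacna1d, above 0 without library 1, and of -0.31 to 0.67 for Ryr3 to Ryr1, below 0 without library 3. No paired analysis was possible because there is 1 group. Depth limits the members below 1 CPM, 26 of 68, whose values rest on few reads.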
